A study of Mus musculus with 11 samples.

Results

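The 10 genes described here are antioxidant genes classed as targets of NRF2, the transcription factor encoded by Nfe2l2: Hmox1, Nqo1, Gclm, Gclc, Txnrd1, Slc7a11, Srxn1, Prdx1, Sod2 and Cat. They were chosen by name, and every probe that the array carries for them was taken, which gave 19 of the 45281 probes. Of these probes 15 were detected on at least 2 arrays, 10 were detected on all 11 arrays and 2 on none. Through these probes 9 of the 10 genes entered the tests, among 8952 genes tested in all. Gclc did not, because its single probe was detected on 1 of the 11 arrays.

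RNA came from microglia, the resident macrophages of the brain, grown from newborn C57BL/6J mice and measured on Illumina BeadChip arrays. A group of 3 arrays had IL-4 (100 U/ml) and another 3 had TGFb (20 ng/ml), both for 48 h. The remaining stimulated group, 2 arrays numbered 1 and 3, had LPS (100 ng/ml) plus IFNg (20 ng/ml) during 16 h, and 3 untreated arrays, whose culture time the labels leave out, served as control. All 4 groups shared a medium with 9% FCS and 0.05 mM β-mercaptoethanol, a thiol reducing agent. The LPS/IFNg group differs from the IL-4 and TGFb groups in time as well as stimulus, so stimulus and time cannot be told apart. Whether it also differs in time from the untreated cells is not known, so time cannot be set aside there either. All untreated arrays lay on slide 2, together with the arrays numbered 3 of each stimulated group, and the remaining stimulated arrays lay on slide 1.

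In resting cells the adaptor KEAP1 holds NRF2 in the cytoplasm and directs it to degradation, and oxidants or electrophiles that modify KEAP1 let NRF2 reach the nucleus. There it pairs with small MAF proteins at antioxidant response elements in the DNA, sites that the repressor BACH1 can also occupy. The genes it is known to drive supply glutathione, return thioredoxin and peroxiredoxins to their reduced forms, break down heme and reduce quinones, and in microglia they stand against the oxidants that these cells release when activated.

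Promoter sequences from 250 bases before to 50 bases after each transcription start were taken from RefSeq on GRCm38.p6, and 8 of the 10 genes had one, with 10 promoters between them. The core of the antioxidant response element, TGACNNNGC on either strand, was in 4 of these 10 promoters (40%), 1 each of Gclm, Txnrd1, Srxn1 and Prdx1. It was in 12.4% of all 32851 promoters of the same length, and in 13 of 62 promoters (21%) of the other pathway genes described below. The 10 genes were chosen as NRF2 targets, so their share is a description. All 4 matches lie on the strand opposite to the gene, so the capitals below mark the core as read from its other strand, in windows printed 5′ to 3′ along the gene.
Gclm, bases -134 to -126 from the start: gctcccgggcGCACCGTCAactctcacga
Txnrd1, bases -92 to -84 from the start: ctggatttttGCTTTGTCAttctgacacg
Srxn1, bases 29 to 37 after the start: gcagtgggcaGCTAGGTCAgagtgagaca
Prdx1, bases -133 to -125 from the start: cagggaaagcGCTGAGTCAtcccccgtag
The Prdx1 match overlaps an AP-1 motif (TGANTCA, either strand), a motif found in 2 of the 10 promoters and in 7.81% of all promoters. The promoters of Slc7a11, Sod2, Cat and Nqo1 held no match to the core in these windows. The Slc7a11 promoter (chr3:50443564-50443863, minus strand) is shown because it holds the amino acid response element TGATGCAAA, a site known to be bound by ATF4, once on each strand, at bases -66 to -58 and -48 to -40. This motif was searched after the sequences had been read, and it was in 0.271% of all promoters. Capitals mark both copies.
Slc7a11: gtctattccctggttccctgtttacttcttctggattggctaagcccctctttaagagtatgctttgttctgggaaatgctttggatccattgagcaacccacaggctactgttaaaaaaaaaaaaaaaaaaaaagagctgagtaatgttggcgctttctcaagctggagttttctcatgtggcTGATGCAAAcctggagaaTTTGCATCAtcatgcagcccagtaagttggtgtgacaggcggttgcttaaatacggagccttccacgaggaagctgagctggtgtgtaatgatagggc
A match describes the letters of a window and says nothing of binding in these cells.

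The arrays had median scanner signals of 120.1 to 127.3 and 12427 to 14200 detected probes. Of 12 microglia markers 10 had a probe and all 10 were tested, and their summed linear signal was 40416 to 50258 on untreated arrays, 28222 to 38594 with IL-4, 44731 to 56840 with TGFb and 15202 to 15979 with LPS/IFNg. In a bulk sample fewer cells of a type and less RNA per cell cannot be told apart. IL-4 replicate 1 stood apart: its 4 tested fibroblast and mural cell markers summed to 3482 against at most 713 on the other 10 arrays. These were Col1a1, Dcn, Acta2 and Thy1, and Acta2 read 11.51 in log2 there and at most 9.27 elsewhere. Of the same list Lum and Pdgfrb were detected on no array. The part of other cells in the results below was not tested, and several results that IL-4 replicate 1 moved are given with and without it. The lowest correlation within a group was 0.945, between IL-4 replicates 1 and 2. The 5 tested astrocyte markers summed to at most 223 on any array, with Aqp4 and S100b undetected. Of 5 neuron markers 4 were detected nowhere. Of 4 endothelial markers Pecam1 alone was detected, and their sum was 724 on IL-4 replicate 1 and at most 377 on the others. The 3 tested oligodendrocyte markers summed to 1033 to 1697, with Mog undetected. With LPS/IFNg against untreated cells Mbp was lower (-3.61) and Mag (1.49) and Cnp (1.53) were higher, all past the test.

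Sod2, the manganese superoxide dismutase that turns superoxide into hydrogen peroxide in mitochondria, was the gene of the set with the widest range of group means, 2.96 log2 units. Its log2 signal was 11.81, 11.09 and 11.38 on the untreated arrays, 11.05, 10.73 and 10.75 with IL-4, 10.94, 10.36 and 10.61 with TGFb, and 13.64 and 13.55 with LPS/IFNg. Both LPS/IFNg arrays lay above all 9 others, and the IL-4 and TGFb arrays lay below every untreated array. Against untreated cells Sod2 rose by 2.17 ± 0.24 log2 units with LPS/IFNg (SE, 4.50-fold, n = 2 and 3, adjusted p = 4.78e-05, limma), and this held in all 24 alternative settings, with 2.00 to 2.36 when single arrays were left out. It was also higher than with IL-4, by 2.75 ± 0.24 (adjusted p = 1.08e-05, limma), and than with TGFb, by 2.96 ± 0.24 (adjusted p = 5.26e-06, limma). The differences of IL-4 and TGFb from untreated cells were -0.58 ± 0.21 (adjusted p = 0.237, limma) and -0.79 ± 0.21 (adjusted p = 0.130, limma). Neither passed the test, although the TGFb difference passed with the authors' table and with replicate number as a block over all arrays.

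Cat encodes catalase, the peroxisomal enzyme that splits hydrogen peroxide into water and oxygen, and its signal moved opposite to that of Sod2 with LPS/IFNg. Its log2 signal was 9.68, 11.41 and 9.46 on the untreated arrays, 8.92, 10.41 and 9.71 with IL-4, 9.30, 9.26 and 10.10 with TGFb, and 8.00 and 8.35 with LPS/IFNg. Both LPS/IFNg arrays were below all others, while the other 3 groups overlapped and untreated replicate 2 stood well above the rest of its group. Cat fell by 2.01 ± 0.57 log2 units against untreated cells (4.03-fold, adjusted p = 0.0164, limma). Without untreated replicate 2 the difference was -1.40 ± 0.44 (adjusted p = 0.0315, limma). The call was lost without either LPS/IFNg array (highest adjusted p = 0.0980, limma) and within slide 2 alone, where the difference was -1.83 (adjusted p = 0.137, limma). Against IL-4 and TGFb, Cat was -1.51 ± 0.57 (adjusted p = 0.0573, limma) and -1.38 ± 0.57 (adjusted p = 0.0758, limma) with LPS/IFNg. Without IL-4 replicate 1 the former was -1.89 ± 0.58 (adjusted p = 0.0247, limma) and passed the test. A further Cat probe was detected on 2 untreated arrays and on no other, so it entered the tests only through the group where it is high, and its difference gives no independent support.

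Prdx1, a cytosolic peroxiredoxin that reduces peroxides at the expense of thioredoxin, varied little. Its log2 signal was 13.53, 13.70 and 13.68 on the untreated arrays, 13.11, 13.67 and 13.22 with IL-4, 13.45, 13.46 and 13.35 with TGFb, and 13.86 and 14.06 with LPS/IFNg. The LPS/IFNg arrays were the highest of the 11, and the TGFb arrays lay below every untreated array. It was higher with LPS/IFNg than with IL-4 by 0.63 ± 0.18 (adjusted p = 0.0206, limma) and than with TGFb by 0.54 ± 0.18 (adjusted p = 0.0372, limma), and 0.32 ± 0.18 above untreated cells (adjusted p = 0.190, limma). These calls held in 19 and 16 of 25 alternative settings. The former was lost without IL-4 replicate 3 or LPS/IFNg replicate 3, and the latter without any 1 array of its groups or untreated replicate 3. A dimmer Prdx1 probe, detected on 10 arrays, read 5.09, 6.37 and 4.70 in untreated cells and 6.69 and 6.84 with LPS/IFNg. With every probe tested, where 37.6% of all probes passed, that probe rose by 1.38 ± 0.45 (adjusted p = 0.0326, limma), so both Prdx1 probes pointed up and differed in size.

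Srxn1 encodes sulfiredoxin, which repairs over-oxidised peroxiredoxins. Its log2 signal was 9.98, 11.04 and 9.58 on the untreated arrays, 9.08, 10.73 and 10.13 with IL-4, 9.86, 10.76 and 10.36 with TGFb, and 10.26 and 9.51 with LPS/IFNg. All 4 groups overlapped, and no comparison passed the test. The difference from untreated cells was -0.32 with LPS/IFNg (95% interval -1.47 to 0.83), and the other Srxn1 probes, both detected on all arrays, had differences of 0.43 and 0.15, so the 3 probes did not share a sign.

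**Figure D1:**
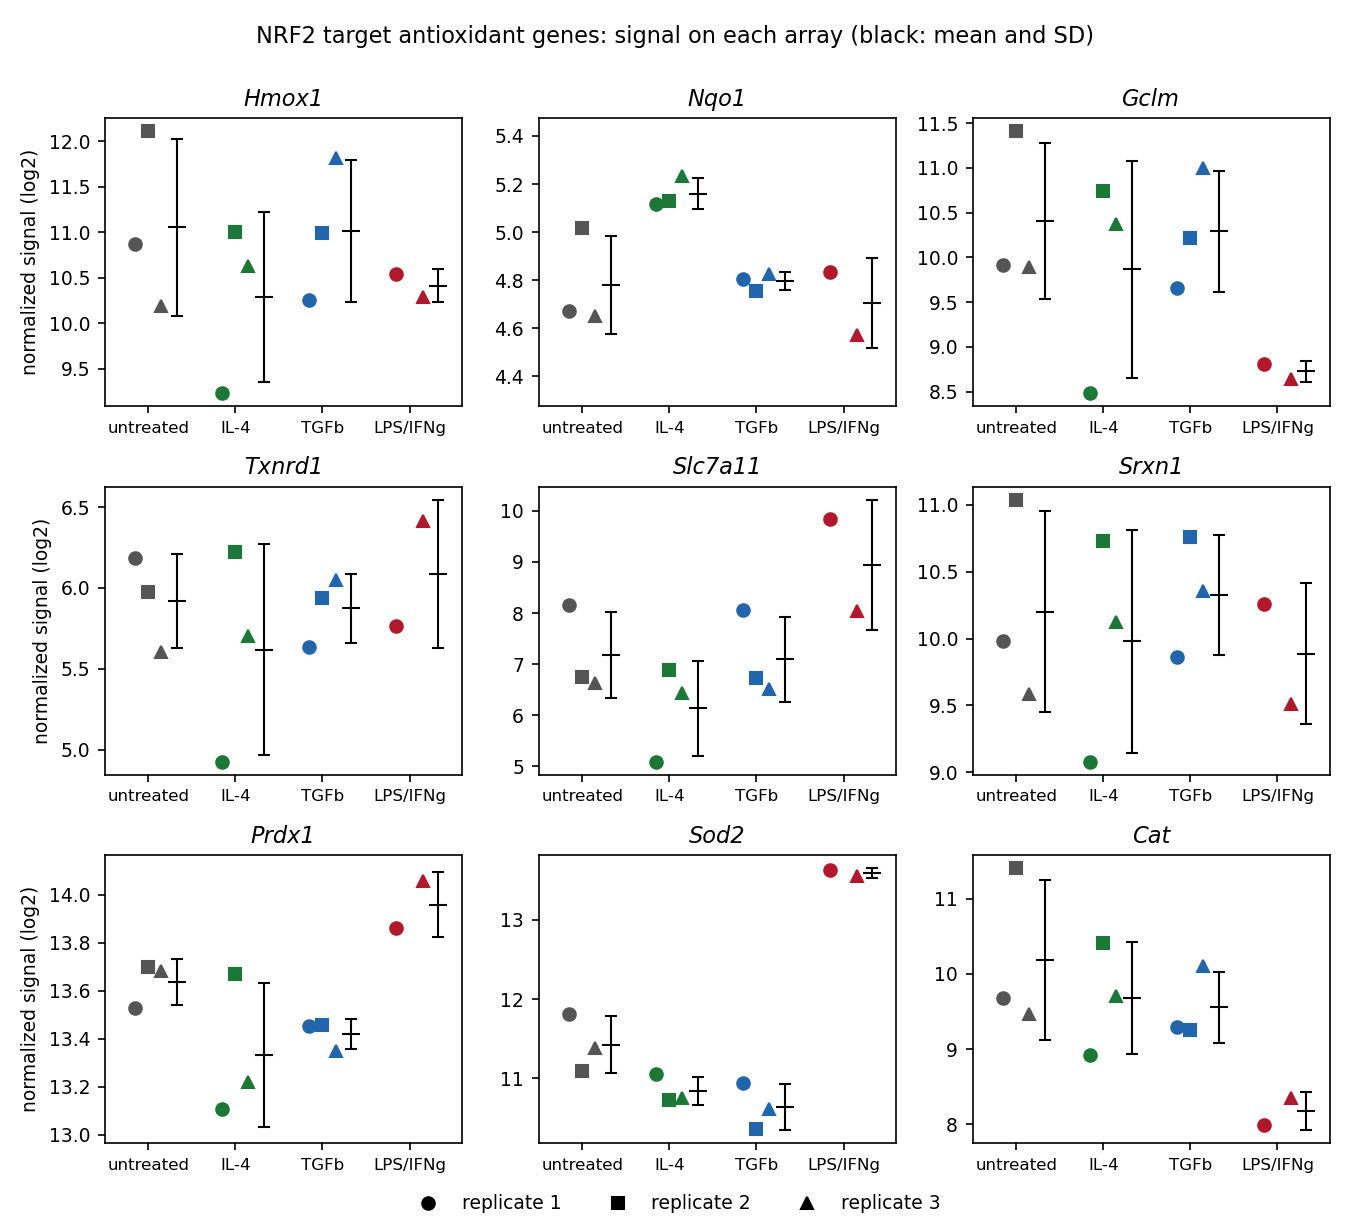
Log2 signal (y axis) of the probe that represents each of the 9 tested genes, 1 panel a gene, with 1 point for each array by group (x axis, symbol for the replicate number) and black bars for the group mean and SD. The LPS/IFNg arrays stand above all others for Sod2 and below all others for Cat, while Hmox1, Gclm and Srxn1 spread by over 1 log2 unit among the untreated arrays.

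The glutathione branch was represented by Slc7a11, the cystine carrier of the system that imports the precursor of glutathione, and by Gclm and Gclc, the modifier and catalytic subunits of glutamate-cysteine ligase. Slc7a11 had a log2 signal of 8.15, 6.76 and 6.62 on the untreated arrays, 5.09, 6.89 and 6.43 with IL-4, 8.05, 6.73 and 6.52 with TGFb, and 9.84 and 8.04 with LPS/IFNg. LPS/IFNg replicate 1 was the highest array, while LPS/IFNg replicate 3 lay below untreated replicate 1 and TGFb replicate 1. The difference between LPS/IFNg and untreated cells was 1.76 ± 0.71 log2 units (3.39-fold, adjusted p = 0.0709, limma), which did not pass the test.

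The probes of Slc7a11 gave different calls for that comparison. A probe detected on the LPS/IFNg arrays alone read 5.08, 4.52 and 4.60 in untreated cells and 7.53 and 6.21 with LPS/IFNg, at least 3.48-fold higher. It entered the test only through the group where it is high, so its call gives no independent support. Another, detected on all 11 arrays, read 7.13, 5.71 and 6.24 in untreated cells and 9.11 and 7.49 with LPS/IFNg, a rise of 1.93 ± 0.52 (adjusted p = 0.0127, limma). On that probe the LPS/IFNg arrays lay above every other array. Within slide 2 alone, where LPS/IFNg has only replicate 3, the representative probe gave 0.86 (adjusted p = 0.356, limma). Leaving out LPS/IFNg replicate 1 from the full fit also gave 0.86, and leaving out LPS/IFNg replicate 3 gave 2.67, past the test.

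Against IL-4, Slc7a11 was 2.80 ± 0.71 log2 units higher with LPS/IFNg (6.97-fold, adjusted p = 0.00993, limma), and the other probe detected on all arrays passed too (2.81 ± 0.52), beside 36.2% of all probes. Without LPS/IFNg replicate 1 this difference was 1.90 (adjusted p = 0.115, limma) and no longer passed, and without IL-4 replicate 1 it was 2.28 (adjusted p = 0.0253, limma). IL-4 replicate 1 had the lowest Slc7a11 signal of the 11 arrays. Without that array the IL-4 difference from untreated cells was -0.52 in place of -1.04, and neither passed the test. Against TGFb the LPS/IFNg difference was 1.84 ± 0.71 (adjusted p = 0.0602, limma), with the other probe detected on all arrays at 2.25 ± 0.52 and past the test, beside 39.1% of all probes. On the representative probe, leaving out LPS/IFNg replicate 1 gave 0.94 (adjusted p = 0.426, limma), and leaving out LPS/IFNg replicate 3 gave 2.74 (adjusted p = 0.0311, limma). That probe also passed without IL-4 replicate 1, TGFb replicate 1 or untreated replicate 1, without background correction, with the authors' table, and with a replicate block on the arrays of the 2 groups.

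Gclm had a log2 signal of 9.92, 11.41 and 9.89 on the untreated arrays, 8.48, 10.75 and 10.37 with IL-4, 9.66, 10.22 and 10.999 with TGFb, and 8.81 and 8.64 with LPS/IFNg. The LPS/IFNg arrays lay below all untreated and TGFb arrays, but IL-4 replicate 1 was lower still. Against IL-4 the LPS/IFNg difference was -1.14 ± 0.67 (adjusted p = 0.201, limma). Without IL-4 replicate 1 it was -1.83 ± 0.53 (adjusted p = 0.0188, limma) and passed the test. The LPS/IFNg difference from untreated cells was -1.68 ± 0.67 (95% interval -3.15 to -0.21, adjusted p = 0.0660, limma), which did not pass the test. It passed with median scaling (-1.83, adjusted p = 0.0327, limma), on the arrays of these 2 groups alone (adjusted p = 0.0273, or 0.00310 with a replicate block, limma), and once IL-4 replicate 1 was left out of the shared estimate of spread (adjusted p = 0.0171, limma), when the representative Slc7a11 probe passed too (adjusted p = 0.0466, limma).

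Gclc read 4.63, 4.68 and 4.59 in untreated cells, 4.94, 5.17 and 4.85 with IL-4, 4.94, 4.98 and 4.60 with TGFb, and 4.97 and 4.41 with LPS/IFNg. It was detected on 1 IL-4 array and not well above background elsewhere, so it gives no order of the groups.

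**Figure D2:**
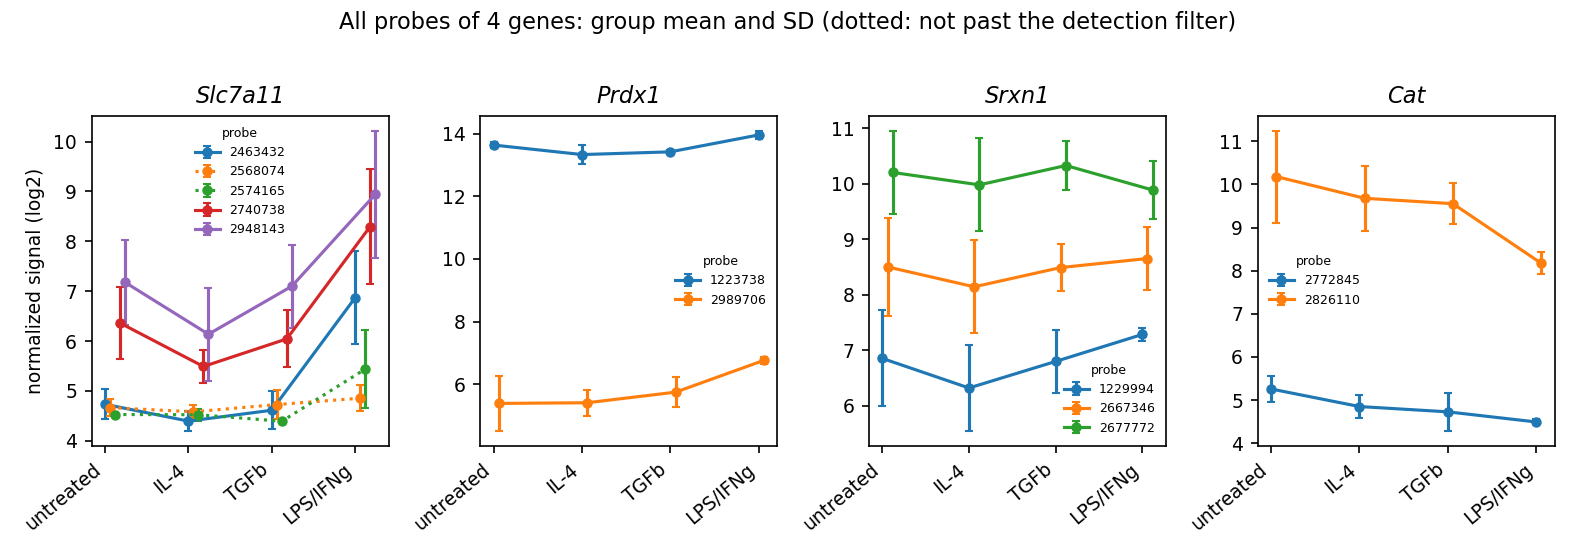
Group mean and SD of log2 signal (y axis) by group (x axis) for every probe of the 4 genes with more than 1 passing probe, 1 line a probe, dotted where the probe missed the detection filter. The Slc7a11 probes detected on all arrays have their highest mean with LPS/IFNg, the Cat probe detected on all arrays has its lowest there, and the 3 Srxn1 probes do not share a direction. A further Slc7a11 probe and a further Cat probe passed the filter only through the group where each is high, so their order gives no independent support.

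Hmox1 encodes heme oxygenase 1, which opens the heme ring and releases iron, carbon monoxide and biliverdin. Its log2 signal was 10.87, 12.11 and 10.19 on the untreated arrays, 9.23, 11.002 and 10.63 with IL-4, 10.25, 10.99 and 11.81 with TGFb, and 10.54 and 10.29 with LPS/IFNg. Every stimulated group overlapped the untreated arrays, whose own range of signals was wider than any difference between group means. The differences from untreated cells were -0.77 ± 0.57 with IL-4, -0.04 ± 0.57 with TGFb and -0.64 ± 0.63 with LPS/IFNg, and none passed the test (adjusted p = 0.608, 0.993 and 0.448, limma). The 95% interval of the LPS/IFNg difference ran from -2.05 to 0.76. Against IL-4 the LPS/IFNg difference was 0.12, and -0.40 without IL-4 replicate 1, neither past the test.

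Txnrd1 encodes the cytosolic thioredoxin reductase, which uses NADPH to reduce thioredoxin. Its log2 signal was 6.18, 5.97 and 5.61 on the untreated arrays, 4.93, 6.22 and 5.70 with IL-4, 5.64, 5.94 and 6.05 with TGFb, and 5.76 and 6.41 with LPS/IFNg. The groups overlapped throughout. IL-4 replicate 1 gave the lowest value, under that array's lowest detected signal of 5.03, so the probe was not detected there. The differences from untreated cells were -0.30, -0.05 and 0.17 in the same order of stimuli, and none passed the test (lowest adjusted p = 0.733, limma). Without IL-4 replicate 1 the IL-4 difference was 0.04.

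Nqo1 encodes a quinone reductase that is commonly read as a marker of NRF2 activity. Its better probe was detected on the 3 IL-4 arrays and on no other, so it entered the tests only through that group, and its other probe was detected on none. The former read 5.12, 5.13 and 5.23 with IL-4, 4.67, 5.02 and 4.65 in untreated cells, 4.81, 4.75 and 4.83 with TGFb, and 4.84 and 4.57 with LPS/IFNg. The IL-4 arrays lay above all others, within 1 log2 unit of them. Against untreated cells the signal was at least 1.06-fold higher with IL-4 (fitted difference 0.38 ± 0.15, adjusted p = 0.266, limma), which did not pass the test. The LPS/IFNg signal was below that with IL-4 (fitted difference -0.46 ± 0.16, adjusted p = 0.0468, limma), but the probe was not well above background with LPS/IFNg and no fold over 1 could be bounded. This call held in 3 of 25 alternative settings.

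With IL-4, none of the 9 tested genes passed the test against untreated cells, where 1.28% of all genes did. Of the 9, 2 had an unadjusted p below 0.05, as did 1264 of all 8952 genes. The 2 genes whose groups did not overlap were Nqo1 (higher, tested only through its IL-4 signal) and Sod2 (lower), and 18.5% of all genes did not overlap. The median difference of the 9 was -0.50 log2 units beside 0.01 over all genes. The median was -0.12 without IL-4 replicate 1, when Hmox1 was -0.24, Gclm 0.15, Srxn1 0.23, Txnrd1 0.04 and Cat -0.12, and still none passed. Without untreated replicate 2 the same 5 genes were -0.24, -0.04, 0.20, -0.28 and 0.11, and none passed either.

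With TGFb, again none of the 9 passed, against 0.983% of all genes. Of the 9, 1 (Sod2) had an unadjusted p below 0.05, as did 987 of all 8952 genes. Prdx1 and Sod2 did not overlap between the groups, both lower with TGFb, and 17.7% of all genes did not overlap. The median difference was -0.08 beside 0.01 over all genes. Apart from Sod2 and Cat, no difference was larger than 0.22 log2 units in either direction, but the intervals were wide: that of Hmox1 ran from -1.30 to 1.22.

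With LPS/IFNg, 2 of the 9 passed against untreated cells, Sod2 higher and Cat lower, where 41% of all genes passed. In all, 17.5% of genes were called higher and 23.5% lower (1568 and 2106 genes, which became 1012 and 2323 with median scaling, when the median of all genes moved from -0.07 to -0.25). Groups did not overlap for 4 of the 9 (Gclm, Prdx1, Sod2 and Cat), as for 63.1% of all genes. The median difference was -0.08 for the 9 and -0.07 for all genes, and the median size of the difference was 0.64 and 0.52.

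Between the stimuli, none of the 9 passed for IL-4 against TGFb, where 8.58% of all genes did. Of the 9, 1 (Nqo1, tested only through its IL-4 signal) had an unadjusted p below 0.05, as did 1976 of all 8952 genes. Nqo1 was also the 1 gene whose groups did not overlap, beside 27.3% of all genes. For LPS/IFNg against IL-4, 4 of 9 passed, with Slc7a11, Prdx1 and Sod2 higher and Nqo1, tested only through its IL-4 signal, lower, as did 40% of all genes (16.4% higher and 23.5% lower, 1470 and 2107 genes, which became 913 and 2507 with median scaling). Groups did not overlap for 5 of the 9 (these 4 and Cat), as for 61% of all genes. For LPS/IFNg against TGFb, 2 of 9 passed, Prdx1 and Sod2, both higher, as did 42% of all genes (17.8% higher and 24.2% lower). Groups did not overlap for 4 of the 9 (Gclm, Prdx1, Sod2 and Cat), as for 64.8% of all genes. The 3 comparisons of LPS/IFNg share its 2 arrays, and on 1 slide alone, where LPS/IFNg has 1 array, fewer of all genes were called too. On 1 slide alone, Sod2 was the sole call of the 9 in each of these 3.

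**Figure D3:**
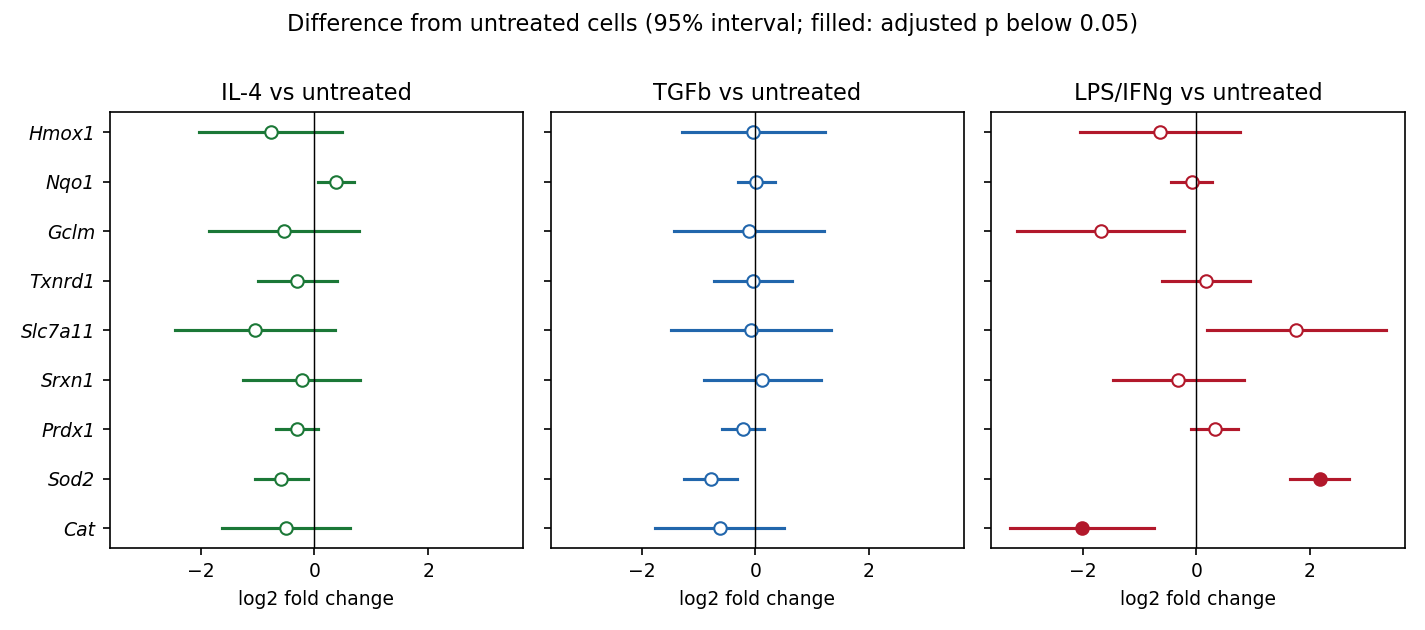
Log2 difference (x axis) with its 95% interval for each of the 9 tested genes (y axis) in the 3 comparisons with untreated cells, with filled points for adjusted p below 0.05 in limma. Sod2 at 2.17 and Cat at -2.01 with LPS/IFNg are the only filled points, and the intervals of Hmox1, Gclm and Slc7a11 are wide.

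Replicates of a group differed widely in several of these genes. The standard deviation of the values around the group means exceeded that of 95% of all genes in 5 of the 9. It was 0.94 log2 units for Slc7a11, 0.88 for Gclm, 0.83 for Hmox1, 0.75 for Cat and 0.68 for Srxn1. It was 0.27 for Sod2, larger than in 52.7% of genes, and 0.18 for Prdx1, larger than in 22% of genes, while 0.43 for Txnrd1 and 0.14 for Nqo1 exceeded 84.9% and 9.42%.

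The same arrays were high or low in several of these genes at once. Untreated replicate 2 was the highest of its group in 6 of the 9 and untreated replicate 3 the lowest in 7, beside 36.8% and 29.3% of all genes. IL-4 replicate 1 was the lowest of its group in 8 and IL-4 replicate 2 the highest in 7, beside 43% and 32.1% of all genes. TGFb replicate 3 was the highest in 5, beside 37.2% of all genes. Sod2 went the other way, with its lowest untreated value on replicate 2 and its highest IL-4 value on replicate 1. Slc7a11 was highest on the arrays numbered 1 in the untreated, TGFb and LPS/IFNg groups and lowest on that of the IL-4 group. Of the counts above, all but that of IL-4 replicate 2 include Nqo1, which was undetected on every untreated and TGFb array. That of IL-4 replicate 1 also includes Txnrd1, undetected on that array. An order among undetected values is not well measured.

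Taken over the 11 arrays as deviations from the group means, the 6 pairs among Hmox1, Gclm, Srxn1 and Cat correlated at 0.763 to 0.962. Sod2 correlated with these 4 at -0.682 to -0.603, and Slc7a11 at -0.01 to 0.31. These 4 genes were grouped after their values had been seen, the points share arrays and slides, and the deviations of a group sum to 0, so the coefficients are a description. Over all 36 pairs of the 9 genes the median was 0.44.

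**Figure D4:**
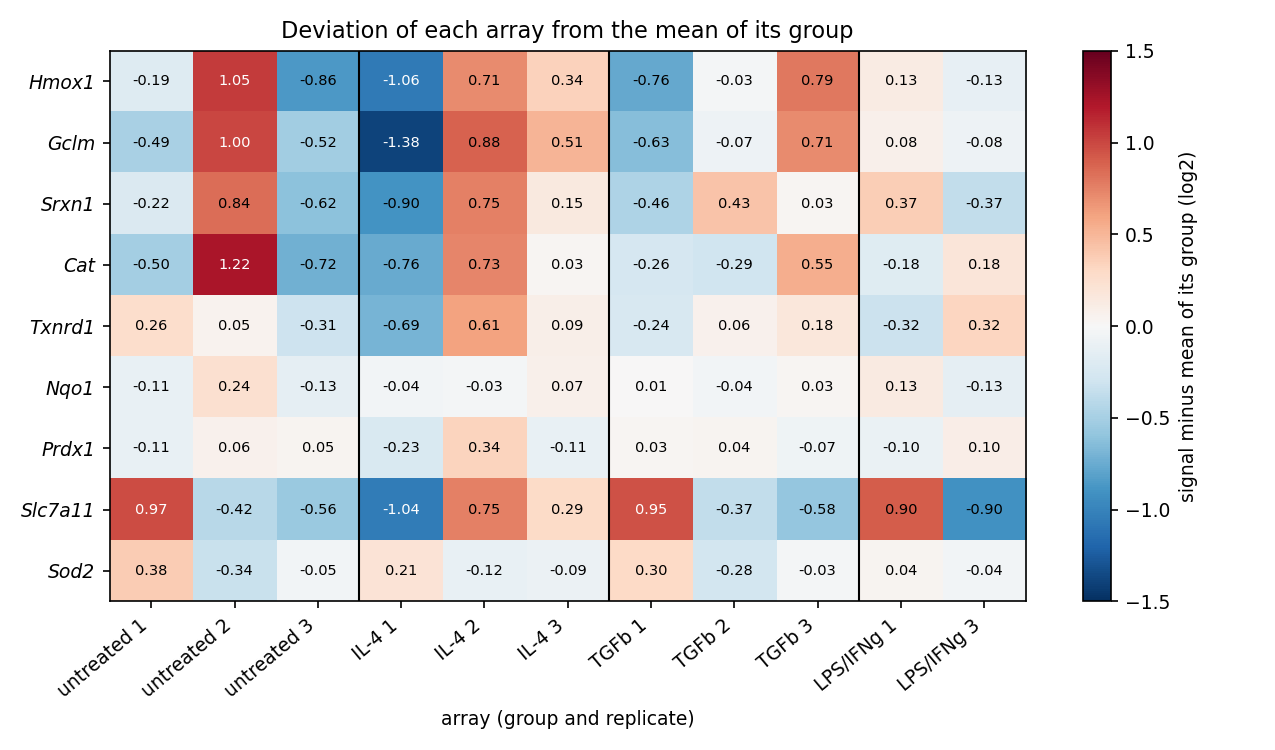
Deviation of each tested gene (y axis) from the mean of its group on each of the 11 arrays (x axis), in log2 units as a colour from blue (below) to red (above) with the value printed. Hmox1, Gclm, Srxn1 and Cat are high together on untreated replicate 2 and low together on IL-4 replicate 1, where Sod2 shows the opposite sign.

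For the 3 genes with the widest range of group means, the other genes with the most similar values were found by the root mean square difference over the 11 arrays, each gene taken relative to its untreated mean. For Sod2 these were Nfkbia (0.190 log2 units), which encodes an inhibitor of NF-kB, Batf (0.225), a transcription factor of the AP-1 family, and Cyria (0.230), beside a median of 1.17 over all genes. Nfkbia differed from untreated cells by -0.53 with IL-4, -0.90 with TGFb and 2.40 with LPS/IFNg, beside -0.58, -0.79 and 2.17 for Sod2. For Cat they were R3hdm1 (0.331), Slc48a1 (0.381), a heme transporter, and Gclm (0.436). For Slc7a11 the nearest genes, Hcls1, Gm16867 and Dusp16, were 0.639 to 0.655 away beside a median of 1.28, so no gene followed it as closely.

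Another 56 genes of the pathway were taken from lists by role, of which 52 had a probe and 46 were tested. None passed against untreated cells with IL-4 or TGFb. Of the 46, 8 and 7 had an unadjusted p below 0.05, as did 1264 and 987 of all 8952 genes. With the authors' table in place of the scanner signals, 3 and 2 of the 46 passed, beside 405 and 289 of all 8952 genes. With TGFb 1 was called higher without background correction, with robust eBayes and without IL-4 replicate 1, and 1 lower with a replicate block. In the same order, calls over all 8952 genes were 118, 106, 228 and 148, beside 88 in the main fit. With LPS/IFNg 20 of 46 passed, 4 higher and 16 lower, beside 41% of all genes, and the median difference was -0.65 log2 units beside -0.07 over all genes. With median scaling the split was 3 and 18. The summed microglia markers were lower on the same arrays, as given above, with Csf1r, Cx3cr1, P2ry12, Tmem119, Trem2 and Tyrobp called lower but Aif1 (1.32) and Ptprc (0.92) called higher, and their part in these values was not tested.

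Among the regulators 3 of 8 passed with LPS/IFNg against untreated cells, beside 41% of all genes. Keap1 rose by 1.66 ± 0.20 (8.61 ± 0.15 in untreated cells, SD, n = 3, and 10.27 with LPS/IFNg, adjusted p = 0.000103, limma), and Maff, a small MAF protein, was at least 2.13-fold higher (adjusted p = 5.40e-05, limma). Maff was detected on the 2 LPS/IFNg arrays alone and entered the test only through them. Mafg, another small MAF protein, fell by 0.92 ± 0.31 (adjusted p = 0.0375, limma), a call that held in 17 of 24 settings. Nfe2l2 itself was -0.61 ± 0.23 with LPS/IFNg (adjusted p = 0.0577, limma), -0.62 with IL-4 (adjusted p = 0.200, limma) and -0.36 with TGFb (adjusted p = 0.604, limma), none past the test. Bach1 was 0.88, -0.41 and -1.13 with IL-4, TGFb and LPS/IFNg and did not pass either.

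In the glutathione list 5 of 12 passed with LPS/IFNg, beside 41% of all genes. Glrx, a glutaredoxin, rose by 1.72, while Gsto1, an omega-class glutathione transferase, fell by 3.03. The glutathione peroxidase Gpx1 fell by 2.24, and Mgst1 and Gpx4 were also lower (-1.75 and -1.54). In the thioredoxin and peroxiredoxin list 2 of 8 passed, beside the same 41%. The mitochondrial thioredoxin Txn2 rose by 0.74, a call that held in 22 of 24 settings and was lost with median scaling. The peroxiredoxin Prdx4 of the endoplasmic reticulum fell by 1.64. In the NADPH list 2 of 4 passed, both lower, where 23.5% of all genes were called lower. Idh1, the cytosolic isocitrate dehydrogenase, fell by 4.21. Taldo1, transaldolase of the pentose phosphate pathway, fell by 1.59, a call that held in 22 of 24 settings.

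In the heme and iron list 3 of 7 passed with LPS/IFNg, all lower, where 41% of all genes passed and 23.5% were called lower. Slc40a1, the iron exporter ferroportin, fell by 4.74 ± 1.08 (adjusted p = 0.00502, limma), Slc48a1 fell by 2.06 and Ftl1, a ferritin subunit, fell by 0.89. The Ftl1 call held in 21 of 24 settings and was lost with median scaling. In the list of other detoxification genes and dismutases 5 of 7 passed, all lower, beside the same shares of all genes. Cbr3, a carbonyl reductase, fell by 3.93 ± 0.20 (adjusted p = 3.67e-07, limma), Ephx1, a microsomal epoxide hydrolase, fell by 3.91 and Aldh2, a mitochondrial aldehyde dehydrogenase, fell by 2.50. The sizes depended on the processing: over 24 settings Cbr3 ran from -4.28 to -2.31 and Ephx1 from -4.20 to -2.38, called in each. Cbr1 and Sod1 were the other genes called there. Sod1, the cytosolic copper and zinc superoxide dismutase, fell by 0.89 ± 0.17 (adjusted p = 0.00208, limma) on the arrays on which Sod2 rose.

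Between IL-4 and TGFb 2 of the 46 passed, Txn2 higher with IL-4 by 0.92 ± 0.17 (adjusted p = 0.00761, limma) and Sod1 lower by 0.67 ± 0.16 (adjusted p = 0.0245, limma), beside 8.58% of all genes. The Sod1 call held in 16 of 25 settings and was lost with median scaling, on either slide, on the arrays of the 2 groups with or without a replicate block, and without IL-4 replicate 1 or 2 or TGFb replicate 2 or 3. The Txn2 call held in 23 and was lost on either slide alone. Of the 46, 21 passed for LPS/IFNg against IL-4, 4 higher and 17 lower, beside 40% of all genes, and 23 against TGFb, 7 higher and 16 lower, beside 42%.

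**Figure D5:**
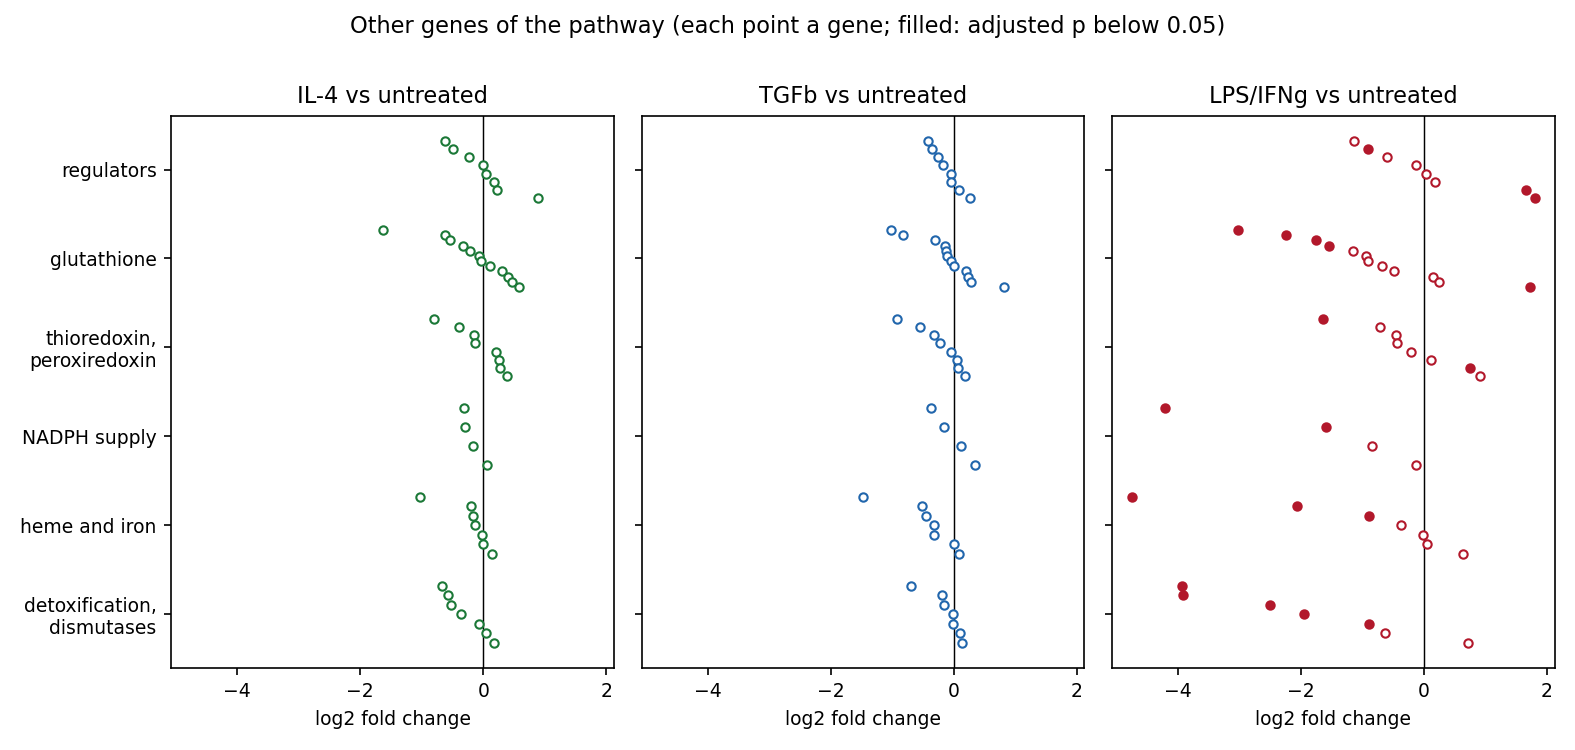
Log2 difference from untreated cells (x axis) for the other tested pathway genes by list (y axis), with IL-4, TGFb and LPS/IFNg side by side and filled points for adjusted p below 0.05 in limma. Filled points appear with LPS/IFNg alone, from Slc40a1 at -4.74 to Maff, whose fitted value of 1.80 is shown although the probe was undetected in untreated cells.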

How the data were processed

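Per the file headers, the scanner table as deposited pairs a linear, unnormalized intensity with a detection p-value for each probe and array. The authors' value table is on a log2 scale. Comparison with the scanner signals showed it to be quantile normalized and shifted per probe by slide in opposite directions (largest deviation 0.0079 log2 units). Other steps were not given in the sources used here, beside Partek, per the submitters' processing notes.

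Intensities were normalized with neqc in limma 3.58.1 under R 4.3.3 (normexp, offset 16, quantile normalization, log2). Probes detected at a p below 0.01 on at least 2 arrays were kept, and the probe with the highest mean stood for its gene. A single gene symbol was given for 34885 probes, several for 18 and none for 10378. Entrez identifiers served to update 34807 symbols. One linear model with 4 group means was fitted to 11 arrays and 8952 genes (lmFit, eBayes, 7 residual and 3.52 prior degrees of freedom). Genes were called at a Benjamini-Hochberg adjusted p below 0.05, and differences are first group minus second. The pipeline was tested on simulated data. A probe undetected in the lower group gives a bound, the higher group's mean over the lower group's mean, with values under the lowest detected signal of their array raised to it. The number of arrays limits precision, and since no label says that replicates were separate cultures, the p-values cover only the spread between these samples.

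The genes and lists were chosen with earlier results of these data known. Named were all 10 genes, Nfe2l2, Keap1 and Bach1, for each list the called genes with the largest differences (up to 3 each way), and 3 nearest genes for each of 3 members; others named were chosen after their values were seen. Same-numbered IL-4 and untreated arrays deviated together (r of 0.401, 0.444 and 0.261 over genes), each above a limit of 0.1. LPS/IFNg and TGFb arrays did so too on their shared numbers (0.235 and 0.369). IL-4 and TGFb arrays gave 0.263, 0.0876 and 0.134, and each remaining pair of groups had at least 1 negative value. Alternatives covered background correction, scaling, the authors' table, filters, probes, slide, replicate number, eBayes settings, arrays of 2 groups, and single arrays left out.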

Additional observations from a re-analysis of the deposited data

How the results depend on the processing

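Under every alternative run, 24 for IL-4 against untreated and 25 for IL-4 against TGFb, 0 genes of the set were called. TGFb against untreated went from 0 to 1 (Sod2, lower) with the authors' table (adjusted p = 0.0468) and with a replicate block over all arrays (adjusted p = 0.0372). LPS/IFNg against untreated went from 2 to 4 with every probe and with a replicate block on the arrays of the 2 groups alone (an alternative chosen after seeing the data), to 1 on slide 2 alone, and to between 1 (without LPS/IFNg replicate 1) and 4 (without IL-4 replicate 1) with single arrays left out. LPS/IFNg against IL-4 went from 4 to 1 on either slide alone and to between 2 and 5 with single arrays left out, the lowest without IL-4 replicate 3 or either LPS/IFNg array. LPS/IFNg against TGFb went from 2 to 1 on either slide alone, to 4 on the arrays of the 2 groups alone with or without the replicate block, and to between 1 and 4 with single arrays left out. Without IL-4 replicate 1 the last count was 4, and without LPS/IFNg replicate 1, TGFb replicate 2, TGFb replicate 3 or untreated replicate 3 it was 1. Calls over all 8952 genes moved as well. Without IL-4 replicate 1 they went from 3674 to 4009 for LPS/IFNg against untreated and from 3756 to 4033 against TGFb. Against IL-4 they went from 3577 to 2902 without IL-4 replicate 3, and against TGFb to 3278 without TGFb replicate 2. On 1 slide alone they fell in every comparison of LPS/IFNg. The cause of these shifts was not tested. On 1 slide a group with 1 array is assumed to vary like the others. Replicate numbers paired IL-4 with untreated arrays, where the replicate block gave 0 calls, and LPS/IFNg with TGFb arrays on their shared numbers. The block over all arrays gave 3 calls for LPS/IFNg against IL-4 and 2 against each of untreated and TGFb. Of 8 calls over the 6 comparisons 3 held in every setting, all of Sod2, and none turned sign. Of 46 uncalled differences 22 turned sign under some setting. Over all genes a fixed slide block left 29 calls of 115 for IL-4 and 9 of 88 for TGFb against untreated cells, and the authors' table gave 405 and 289. Since untreated arrays lay on slide 2 alone, slide bears on those comparisons. Nqo1 and Gclc lay near background, which limits what their probes can show.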
